A study of Mus musculus with 6 samples.

Results

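The genes described here are the 7 inhibitors of cyclin-dependent kinases (CDKs) of the Cip/Kip and INK4 families, with *Trp53* and *Mdm2*. They were taken by gene symbol from the count table, where all 9 were among the 24421 genes listed. Each of the 9 passed the filter on low counts and was among the 13479 genes tested. RNA was sequenced from untreated primary endothelial cell cultures of the mouse cochlear lateral wall, with 3 cultures from *Nhe6*-knockout and 3 from wildtype mice. The study names the stria vascularis, the ion-transporting tissue of that wall, as their source. Its methods state that this tissue was taken out together with the spiral ligament. Tissue came from mice on postnatal days 10 to 12, several mice were pooled for each culture, and the cells were sorted and passaged before use. Knockout mice carried a targeted disruption of *Nhe6*, which encodes an endosomal sodium-proton exchanger. The labels give a C57BL/6N background for both genotypes, whereas the methods of the study describe a backcross into C57BL/6J, so the substrain of the animals is not settled by these sources. The sex of the pooled mice is not stated.

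CDK inhibitors hold back the kinases that drive a cell from G1 into S phase. The INK4 proteins p16 (*Cdkn2a*), p15 (*Cdkn2b*), p18 (*Cdkn2c*) and p19 (*Cdkn2d*) bind CDK4 and CDK6, whereas the Cip/Kip proteins p21 (*Cdkn1a*), p27 (*Cdkn1b*) and p57 (*Cdkn1c*) bind complexes of cyclins with several CDKs. The transcription factor p53 (*Trp53*) is kept low by the ubiquitin ligase MDM2, and both *Cdkn1a* and *Mdm2* are direct targets of p53. *Cdkn2a* also encodes ARF from another first exon, and ARF binds MDM2. *Cdkn1c* is imprinted and is transcribed from the maternal allele. In primary cell culture these genes are known for growth arrest on confluence and for senescence, and p53 protein is controlled largely after translation.

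The upstream sequences of *Cdkn1a*, *Mdm2* and *Cdkn2a* are shown because *Cdkn1a* and *Mdm2* are the p53 targets among the 9 genes and because *Cdkn2a* has separate starts for its p16 and ARF transcripts. RefSeq (GRCm38.p6) gave 11 windows of 300 bases for 8 of the 9 genes, with *Cdkn1c* as the gene not matched. In the 250 bases before each start, capitals mark the p53 decamer (the unit of which p53 response elements are built), the E2F sites TTTCCCGC, TTTCGCGC, TTTGCCGC and TTTGGCGC, the GC box GGGCGG, the E-box CACGTG and the TATA box TATAAA, searched on both strands.
Cdkn1a, upstream start (chr17:29090729-29090978, plus strand): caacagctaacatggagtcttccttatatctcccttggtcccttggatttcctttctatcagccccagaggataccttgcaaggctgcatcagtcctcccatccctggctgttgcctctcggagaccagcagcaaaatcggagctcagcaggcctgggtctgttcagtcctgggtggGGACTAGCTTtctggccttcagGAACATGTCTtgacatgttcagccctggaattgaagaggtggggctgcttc
Cdkn1a, downstream start (chr17:29093519-29093768, plus strand): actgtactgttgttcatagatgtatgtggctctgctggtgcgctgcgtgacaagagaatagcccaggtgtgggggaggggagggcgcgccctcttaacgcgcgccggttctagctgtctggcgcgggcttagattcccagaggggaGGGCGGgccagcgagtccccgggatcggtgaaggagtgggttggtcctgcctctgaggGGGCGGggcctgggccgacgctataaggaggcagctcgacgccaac
Mdm2 (chr10:117710759-117711008, minus strand): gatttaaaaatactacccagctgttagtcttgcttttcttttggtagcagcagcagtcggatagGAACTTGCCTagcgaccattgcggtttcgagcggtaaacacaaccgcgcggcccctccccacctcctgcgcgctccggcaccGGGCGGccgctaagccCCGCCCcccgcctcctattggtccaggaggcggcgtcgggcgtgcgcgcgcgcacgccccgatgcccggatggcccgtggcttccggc
Cdkn2a, ARF start (chr4:89294620-89294869, minus strand): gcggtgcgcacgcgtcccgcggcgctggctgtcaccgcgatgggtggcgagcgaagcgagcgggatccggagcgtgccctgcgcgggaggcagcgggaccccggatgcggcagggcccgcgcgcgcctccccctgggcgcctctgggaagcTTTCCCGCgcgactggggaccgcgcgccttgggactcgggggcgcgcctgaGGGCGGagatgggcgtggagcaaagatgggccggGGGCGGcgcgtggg
Cdkn2a, p16 start (chr4:89282193-89282442, minus strand): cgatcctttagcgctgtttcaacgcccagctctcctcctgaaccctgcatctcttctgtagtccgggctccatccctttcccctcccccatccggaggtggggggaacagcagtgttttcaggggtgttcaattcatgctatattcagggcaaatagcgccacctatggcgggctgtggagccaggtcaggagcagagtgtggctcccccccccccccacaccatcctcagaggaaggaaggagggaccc

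The upstream *Cdkn1a* window held 2 p53 decamers, at -73 to -64 and at -51 to -42 from that start, and this start lies 2790 bases before the downstream one. *Mdm2* had 1 decamer, at -186 to -177, and *Trp53* and *Cdkn2d* each had 1 in their own windows. In *Cdkn2d* it overlapped a GC box. Of all 32851 windows of this length, 8.36% held a p53 decamer, 35.7% a GC box, 7.15% the E-box, 13.6% the TATA box and 2.26% an E2F site. The E2F site was found in 1 window of the 9 genes, that of the ARF start of *Cdkn2a*, at -99 to -92. The starts of the ARF and p16 transcripts lie 12427 bases apart, and in GENCODE M21 the transcripts share 575 exonic bases, 64.2% of the longer and 67.5% of the shorter one. Counts per gene symbol therefore do not tell p16 from ARF. The window of the p16 start held none of these motifs before the start, and so has no capitals. A letter match is a description of the sequence and no evidence of binding. Sites outside these windows, introns included, were not searched. The windows of *Cdkn1a* and *Mdm2* therefore need not hold the sites through which p53 acts on these genes.

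The reads counted on genes numbered 25587097 to 29126232 in a library. Wildtype replicate 2 stood apart on the first principal component, at 106 against -28.5 to -6.52 for the other 5 libraries, so the log2 fold change of each of the 9 genes and the calls in each gene list are also given without it. *Nhe6*-knockout replicates 1 and 2 were closer to each other than any other pair, with a chi-square per degree of freedom of 4.89 against 89.6 to 397. This was still above sampling noise, which does not show whether their cultures were independent. Both were kept as the labels give them. Of 12 endothelial markers, *Cldn5* had 0 reads in every library, *Pecam1* had at most 8 and *Tie1* at most 2, while *Emcn* had 397 reads in wildtype replicate 2 and 10458 to 18730 in the others. Several other endothelial markers were highest in that library, with 5039 reads of *Cdh5* against 189 to 3243, 3077 of *Flt1* against 399 to 1075 and 975 of *Tek* against 193 to 901. *Esam* had 230 reads there against 3 to 29, *Kdr* 68 against 1 to 21 and *Erg* 15 against 3 to 11. Others were not, with *Vwf* at 0 against 1 to 25. *Egfl7* had 135 reads in wildtype replicates 2 and 3 and 183 to 326 in the other libraries. The summed level of 8 fibroblast markers lay between 224737 and 255405 normalized counts (read counts scaled to a common library size) in knockout and between 175677 and 284759 in wildtype libraries. Within this list *Col1a1* had 26345 reads in wildtype replicate 2 against 199 to 1321 elsewhere, and *Lum* and *Pdgfra* were lowest there, with 1120 reads against 2923 to 7986 and 9775 against 13751 to 19484. All 8 fibroblast markers were tested, whereas 4 of 8 melanocyte and 6 of 8 macrophage markers were. The summed macrophage markers lay between 450.4 and 844 normalized counts in knockout libraries, and at 66.0 in wildtype replicate 2 against 468 and 1205 in the other wildtype libraries. Melanocyte markers summed to 405 to 709.7 in knockout and 288 to 1171 in wildtype libraries. Wildtype replicate 3 had 23 reads of *Tyr* against 0 in the others. It also had 271 of *Tyrp1* against 0 to 5, 166 of *Dct* against 0 to 2 and 31 of *Mlana* against 0 to 1. *Pmel* and *Kit* were also highest there, whereas *Mitf* was highest in wildtype replicate 1 and *Sox10* in knockout replicate 2. Mural markers summed to 19964 to 20666 in knockout and 15494.5 to 28515 in wildtype libraries. Wildtype replicate 2 was highest for *Acta2*, with 15771 reads against 30 to 1272, and *Cspg4*, with 4273 against 360 to 842, and lowest for *Des*, with 4 against 53 to 157, and *Abcc9*, with 3 against 39 to 224. The fibroblast sum was largely *Col1a2* and *Col3a1*, with knockout means of 138236 and 56678. Of 8 fibroblast markers, 3 (*Col3a1*, *Dcn* and *Postn*) were higher in every knockout than in every wildtype library. Of 8 mural markers, 4 (*Pdgfrb*, *Rgs5*, *Des* and *Abcc9*) were. In both lists 0 were lower in every knockout library, against 10.3% higher and 9.57% lower of all genes. *Dcn* had a log2 fold change of 1.00 (edgeR adjusted p = 0.0952). Of the 7 endothelial markers tested, *Cdh5* passed the threshold and was lower in knockout libraries (log2 fold change -4.15, edgeR adjusted p = 0.0133). For the other 4 marker lists edgeR called 0 genes, but it called only 0.0668% of all genes tested, so this does not show that those markers were alike. The part of cell composition in the values below was not tested, and in bulk RNA fewer cells of a type and less RNA per cell cannot be told apart.

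All 9 genes were transcribed in each of the 6 cultures. Per length of exon, *Cdkn1a* had the highest level in *Nhe6*-knockout cells, at 78.1 ± 13.7 (SD, n = 3) CPM per kilobase of exon (CPM, read counts scaled to a common library total), followed by *Cdkn1c* at 64.7 ± 2.82 (SD, n = 3) and *Mdm2* at 40.5 ± 0.844 (SD, n = 3). *Cdkn2a* and *Cdkn2b* came next at 33.0 ± 3.05 and 31.4 ± 12.1 (SD, n = 3), and their ranges overlapped. Below them were *Cdkn1b* at 20.8 ± 0.662, *Cdkn2c* at 17.3 ± 2.06, *Trp53* at 15.7 ± 0.124 and *Cdkn2d* at 8.65 ± 1.08 (SD, n = 3). Among neighbours in this order, the ranges of *Cdkn2c* and *Trp53* also overlapped, and those of the other 6 neighbouring pairs did not. Exon length here is that of all annotated exons of a gene joined, and the order between genes can depend on this choice.

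**Figure D1:**
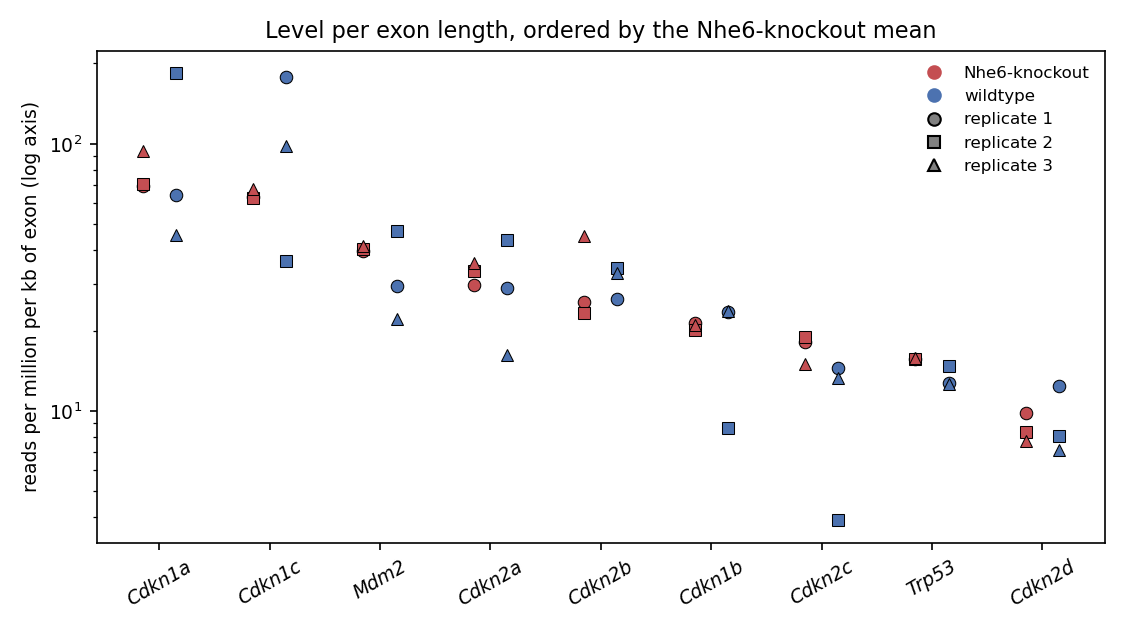
Level of each gene in CPM per kilobase of exon (log axis), with a point for each library, red for *Nhe6*-knockout and blue for wildtype, and genes ordered by the knockout mean. *Cdkn1a* and *Cdkn1c* lie at the top and *Cdkn2d* at the bottom of the knockout levels, and wildtype points spread more widely, with *Cdkn2c* at 3.90 in wildtype replicate 2.

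In wildtype cells the order of the mean levels began with *Cdkn1c* (104 ± 70.6, SD, n = 3) and *Cdkn1a* (98.0 ± 75.0, SD, n = 3). *Mdm2* had 32.8 ± 12.8, *Cdkn2b* 31.1 ± 4.31, *Cdkn2a* 29.6 ± 13.7 and *Cdkn1b* 18.6 ± 8.62 CPM per kilobase (SD, n = 3). *Trp53* at 13.3 ± 1.20, *Cdkn2c* at 10.6 ± 5.80 and *Cdkn2d* at 9.19 ± 2.78 (SD, n = 3) were lowest. Every neighbouring pair in the wildtype order overlapped between its ranges. *Cdkn1a* exceeded *Mdm2* in each of the 3 wildtype cultures, whereas *Cdkn1c* exceeded *Cdkn1a* in 2 of them.

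The study asked how gene expression differed between the genotypes. No gene of the 9 passed the threshold of 0.05 on the adjusted p in edgeR's quasi-likelihood test (two-sided, Benjamini-Hochberg over all genes tested), which called 0.0668% of all genes. None had an unadjusted p under 0.05 in this test either, against 11.8% of all genes, and DESeq2 called 0 of the 9, against 4.65% of all genes. limma-voom also called 0 of the 9 and 0 in each of the 8 gene lists described below. Of the 9 genes, 6 had a log2 fold change above 0 and 3 below 0, with a median of 0.16 against -0.02 for all genes tested. The median size of the log2 fold change, regardless of sign, was 0.23 for the 9 genes and 0.22 for all genes tested. The 95% interval of the difference reached past a 2-fold change in 4 of the 9 genes, *Cdkn1a*, *Cdkn1b*, *Cdkn1c* and *Cdkn2c*, so for these a difference of that size lay within the interval. For 2 genes, *Cdkn2c* and *Trp53*, each knockout culture was above each wildtype culture. Among all genes, 19.9% had no overlap between the genotypes, with 10.3% higher and 9.57% lower in every knockout culture.

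**Figure D2:**
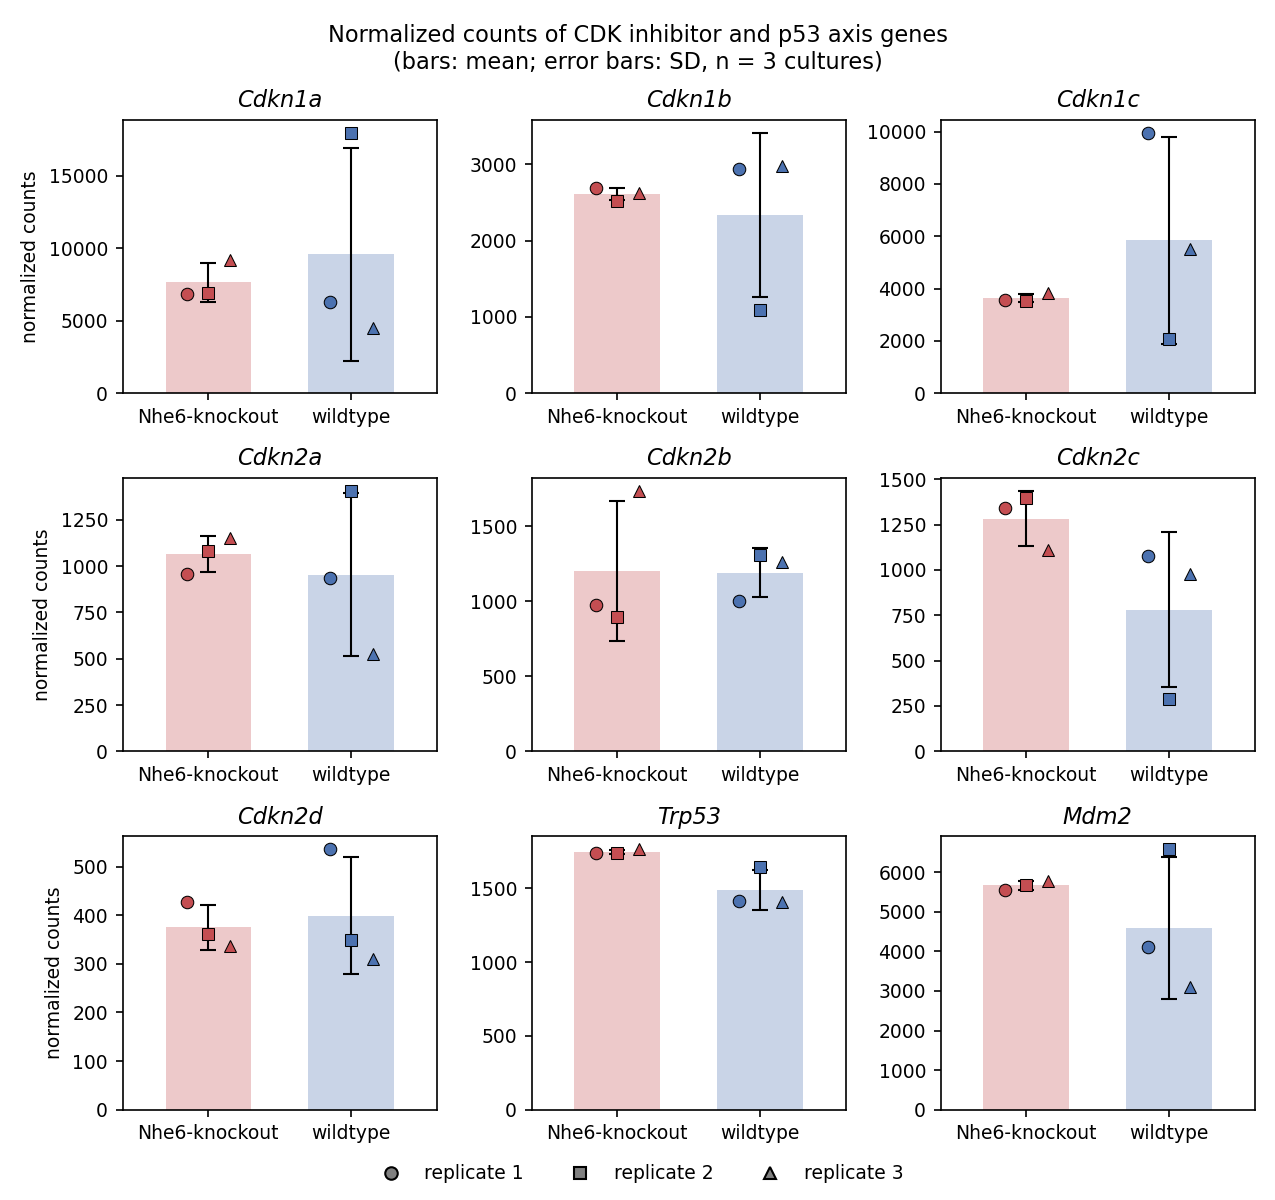
Normalized counts of the 9 genes in each culture, with symbols for replicates 1 to 3, bars for the mean and error bars for the SD over 3 cultures of each genotype. Knockout cultures cluster closely for most genes, while wildtype replicate 2 (square) is the highest for *Cdkn1a*, *Cdkn2a* and *Mdm2* and the lowest for *Cdkn1b*, *Cdkn1c* and *Cdkn2c*.

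Of the Cip/Kip genes, *Cdkn1a* is found on chromosome 17 (GRCm38) between 29090976 and 29100727. Knockout replicates 1 to 3 had 6812, 6918 and 9192 normalized counts, against 6290.3, 17997 and 4478 in wildtype replicates 1 to 3. Wildtype replicate 2 had the most and wildtype replicate 3 the fewest, so the knockout values lay within the wildtype range. The genotype means of 7641 ± 1344 and 9588 ± 7338 (SD, n = 3) gave a log2 fold change of -0.33 (SE 0.52, where SE is the standard error, adjusted p = 0.857 from edgeR), with a 95% interval from -1.57 to 0.91. Leaving out wildtype replicate 2, the log2 fold change turned to 0.50, and each knockout culture then lay above the remaining wildtype cultures.

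*Cdkn1b* encodes p27, which accumulates in resting cells, and lies on chromosome 6 from 134920401 to 134925513. It had 2688, 2523 and 2622 normalized counts in knockout and 2944, 1087 and 2975 in wildtype replicates 1 to 3. Wildtype replicate 2 was below the other 5 libraries, which lay within 2523 to 2975. The log2 fold change was 0.16 (SE 0.37, adjusted p = 0.905) and turned to -0.19 without wildtype replicate 2.

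*Cdkn1c*, the imprinted gene of p57, lies on chromosome 7 from 143458339 to 143461050. It had 3554, 3527 and 3814 normalized counts in knockout and 9964, 2049.5 and 5511 in wildtype replicates 1 to 3. Knockout cultures were alike, whereas the highest wildtype culture had 4.86 times the counts of the lowest. The genotype means of 3632 ± 158 and 5841 ± 3967 (SD, n = 3) gave a log2 fold change of -0.69 (SE 0.51, adjusted p = 0.666) with an interval from -1.92 to 0.55. When wildtype replicate 2 was left out, the log2 fold change was -1.10 (SE 0.24), with an unadjusted p of 0.00405 and an adjusted p of 0.0778, which missed the threshold of edgeR's test. When wildtype replicate 1, the highest culture, was left out instead, it was -0.06 (SE 0.41, adjusted p = 0.958 from edgeR). The size of the difference thus depended on which wildtype culture was left out. GENCODE M21 places exons of *Gm44732* over those of *Cdkn1c*, and of *AC167363.2* over those of *Cdkn1a*, and how reads over such shared exons were counted is not given in the sources used here.

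Among the INK4 genes, *Cdkn2a* (chromosome 4, 89274471 to 89294653) and *Cdkn2b* (chromosome 4, 89306299 to 89311039) are neighbours. *Cdkn2a* had 959.7, 1082 and 1154 normalized counts in knockout and 934, 1406 and 523 in wildtype replicates 1 to 3. As for *Cdkn1a*, wildtype replicate 2 was the highest and wildtype replicate 3 the lowest of the 6. The log2 fold change was 0.16 (SE 0.34, adjusted p = 0.898), and it ran from -0.14 without wildtype replicate 3 to 0.54 without wildtype replicate 2.

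*Cdkn2b*, a gene induced by TGF-beta in many cell types, had 976, 895 and 1735 normalized counts in knockout and 1003, 1309 and 1263 in wildtype replicates 1 to 3. It was the only one of the 9 genes that varied more among knockout than among wildtype cultures, because of knockout replicate 3. The means of 1202 ± 464 and 1192 ± 165 (SD, n = 3) gave a log2 fold change of 0.01 (SE 0.28, adjusted p = 0.989, 95% interval from -0.66 to 0.69). Without knockout replicate 3 it was -0.36, and without wildtype replicate 2 it was 0.08.

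*Cdkn2c* lies on chromosome 4 from 109660876 to 109667189 and had the largest positive log2 fold change of the 9 genes. Its normalized counts were 1340.8, 1397 and 1109 in knockout and 1075, 289 and 979.6 in wildtype replicates 1 to 3. Every knockout culture was above every wildtype culture, but the lowest knockout and highest wildtype cultures were close, and the mean difference rested largely on wildtype replicate 2. The log2 fold change was 0.71 (SE 0.46, adjusted p = 0.614, 95% interval from -0.40 to 1.82) and fell to 0.31 without wildtype replicate 2, which still left no overlap.

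*Cdkn2d*, on chromosome 9 from 21288410 to 21291407, had the lowest mean counts of the family in both genotypes. It had 427, 362 and 336 normalized counts in knockout and 536, 349.7 and 310.1 in wildtype replicates 1 to 3. In both genotypes replicate 1 was the highest, and the groups overlapped throughout. The log2 fold change was -0.09 (SE 0.25, adjusted p = 0.927, 95% interval from -0.69 to 0.51), and -0.18 without wildtype replicate 2.

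**Figure D3:**
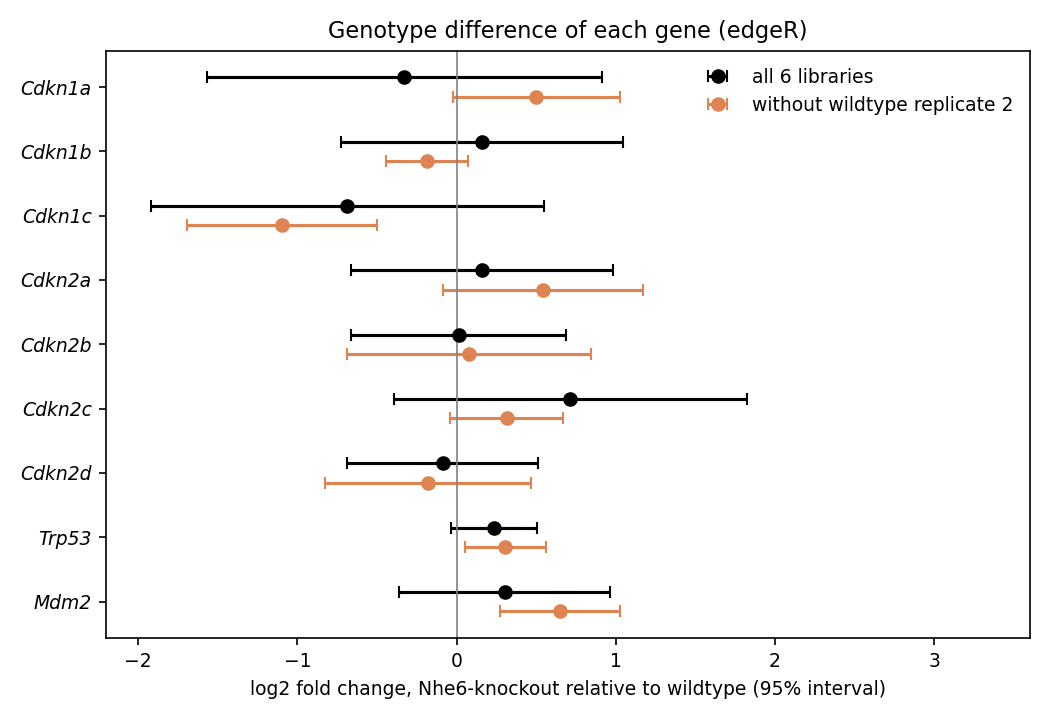
Log2 fold change of each gene in *Nhe6*-knockout relative to wildtype cells with its 95% interval from edgeR, for all 6 libraries (black) and without wildtype replicate 2 (orange). With all libraries every interval includes 0. Without wildtype replicate 2 the intervals of *Cdkn1c*, *Trp53* and *Mdm2* do not include 0, although no adjusted p was under 0.05.

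*Trp53* lies on chromosome 11 from 69580359 to 69591873. It had 1740.0, 1742 and 1765 normalized counts in knockout and 1415, 1641 and 1404 in wildtype replicates 1 to 3. The knockout cultures had the tightest values of all 9 genes, with a coefficient of variation of 0.788%, and each was above each wildtype culture. Knockout replicates 1 and 2, which were alike over the whole table, are part of this small spread. The means were 1749 ± 13.8 and 1487 ± 134 (SD, n = 3), which is 1.18-fold higher in knockout cells (95% interval of the fold from 0.975 to 1.42). The log2 fold change of 0.23 (SE 0.11) had an unadjusted p of 0.0795 and an adjusted p of 0.4795 from edgeR. *Wrap53*, the neighbour on the opposite strand, shares no exonic bases with *Trp53* in GENCODE M21. It had 252, 300.1 and 256 normalized counts in knockout and 242, 251 and 153 in wildtype cultures (log2 fold change 0.32, SE 0.24, adjusted p = 0.670).

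*Mdm2* lies on chromosome 10 from 117688875 to 117710758. Counts of 5548, 5669 and 5784, normalized, were found in knockout and 4116, 6584 and 3089.7 in wildtype replicates 1 to 3. Wildtype replicate 2 was above and the other wildtype cultures were below every knockout culture. The genotype means of 5667 ± 118 and 4597 ± 1796 (SD, n = 3) gave a log2 fold change of 0.30 (SE 0.27, adjusted p = 0.734, 95% interval from -0.36 to 0.96). In the fit without wildtype replicate 2 it was 0.65 (SE 0.15), with an unadjusted p of 0.00555 and an adjusted p of 0.0901 from edgeR. In the fit without wildtype replicate 3, the lowest culture, it was 0.08 (SE 0.22, adjusted p = 0.907 from edgeR).

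Wildtype cultures varied more than knockout cultures in 8 of the 9 genes, as they did in 81.7% of all genes tested. The closeness of knockout replicates 1 and 2 over the whole table is part of this contrast. The coefficient of variation in wildtype cells ran from 8.99% (*Trp53*) to 76.5% (*Cdkn1a*) for the 9 genes, against a median of 23.6% over all genes. In knockout cells it ran from 0.788% to 38.6% (*Cdkn2b*), against a median of 10.7%. Wildtype replicate 2 was the highest or the lowest of the 6 libraries in 6 of the 9 genes, against 53.3% of all genes. Compared with the mean of the other 5 libraries it had 2.67 times the counts of *Cdkn1a*, 1.51 times those of *Cdkn2a* and 1.36 times those of *Mdm2*. For *Cdkn2c* the ratio was 0.245, for *Cdkn1c* 0.389 and for *Cdkn1b* 0.395. This culture thus had more RNA of p21 and less of p18, p27 and p57, with *Trp53* near the others at a ratio of 1.02.

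With wildtype replicate 2 left out, 0 of the 9 genes had an adjusted p under 0.05, against 2.88% of all genes in that fit. An unadjusted p under 0.05 was found for 3, *Cdkn1c*, *Mdm2* and *Trp53*, against 19.5% of all genes. For *Trp53* the log2 fold change was then 0.31 (SE 0.10), with an unadjusted p of 0.0256 and an adjusted p of 0.186 from edgeR. The knockout cultures did not overlap with the remaining wildtype cultures for 7 of the 9 genes, all but *Cdkn2b* and *Cdkn2d*. Among all genes this held for 38.2%. For *Cdkn2c* and *Trp53* it already held with all 6 libraries, as it did for 19.9% of all genes. *Cdkn1a*, *Cdkn2a*, *Cdkn2c*, *Trp53* and *Mdm2* were on the higher side in knockout cells, and *Cdkn1b* and *Cdkn1c* on the lower side.

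The listed p53 target genes, 32 in number and all tested, also moved when wildtype replicate 2 was left out. With all 6 libraries, edgeR called 0 of the 32, and 3 had an unadjusted p under 0.05, against 11.8% of all genes, with 0 called by DESeq2. Their median log2 fold change was 0.10, against -0.02 for all genes. *Pidd1*, which encodes an activator of caspase-2, had 517, 655 and 603 normalized counts in knockout and 227, 424 and 149 in wildtype replicates 1 to 3 (log2 fold change 1.15, SE 0.38, adjusted p = 0.3197). *Rrm2b*, a ribonucleotide reductase subunit, had a log2 fold change of -0.59 (SE 0.17, adjusted p = 0.254) and *Gadd45a*, a stress sensor, one of -1.04 (SE 0.39, adjusted p = 0.367). *Dram1*, which takes part in autophagy, had a log2 fold change of 0.54 (SE 0.23, adjusted p = 0.433).

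Without wildtype replicate 2, 4 of the 32 p53 targets passed the threshold of edgeR's test and all 4 were higher in knockout cells, 12.5% of the list against 1.62% of all genes called higher in that fit. At an unadjusted p under 0.05 there were 16 higher and 3 lower, together 59.4% of the list against 19.5% of all genes in either direction and 9.99% on the higher side. The median log2 fold change was 0.56, against 0.00 for all genes. The 4 genes were *Pidd1* (log2 fold change 1.65, adjusted p = 0.0346) and 3 named only after their values were seen. *Eda2r*, a receptor of the TNF family, had 3257, 3303 and 3043 normalized counts in knockout and 1459, 4208 and 1702 in wildtype replicates 1 to 3. *Aen*, a nuclease, had 1381, 1556 and 1359 in knockout and 746, 1643 and 749.7 in wildtype cultures. *Zmat3*, which encodes an RNA-binding protein, had 6374, 6175 and 6820.4 in knockout and 3751, 11916 and 4076 in wildtype cultures. In all of *Eda2r*, *Aen* and *Zmat3*, wildtype replicate 2 was above and the other wildtype cultures were below every knockout culture, as for *Mdm2* and *Cdkn1a*. Their log2 fold changes without that culture were 1.01 (adjusted p = 0.0241), 0.93 (adjusted p = 0.0300) and 0.72 (adjusted p = 0.0438) in edgeR's test.

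**Figure D4:**
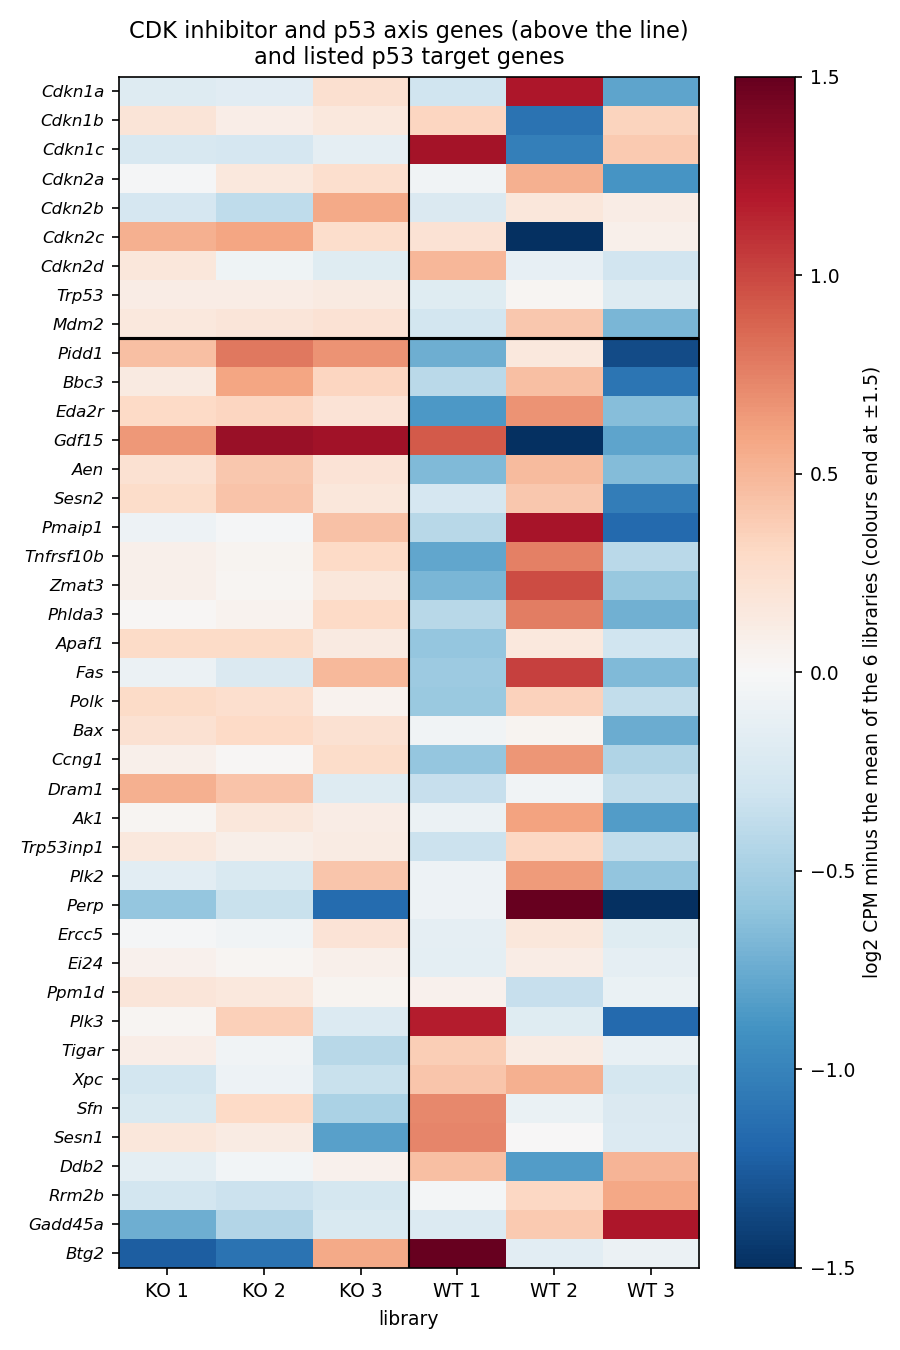
Log2 CPM minus the mean of the 6 libraries for the 9 genes (above the line) and the 32 listed p53 targets, with *Nhe6*-knockout (KO) and wildtype (WT) libraries in columns. Targets are ordered by the knockout mean minus the mean of wildtype replicates 1 and 3, so that contrast is set by the ordering. Many targets are highest in wildtype replicate 2 and lowest in wildtype replicate 3. *Gdf15*, *Ddb2* and *Btg2*, named after their values were seen, are among those that differ.

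Wildtype replicate 2 was the highest library for 15 of the 32 p53 targets, against 26.8% of all genes, and the lowest for 3, against 26.5% of all genes. Wildtype replicate 3 was the lowest for 14 of them, against 23.1% of all genes. When wildtype replicate 3 was left out instead, the median log2 fold change of the targets was -0.05, with 0 past the threshold and 4 at an unadjusted p under 0.05. Without wildtype replicate 1 it was 0.04. Of the 6 fits that left out 1 culture, the one without wildtype replicate 2 was the only one in which a p53 target passed the threshold, and in the others the median log2 fold change lay between -0.05 and 0.13.

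Of 20 listed regulators of p53, 18 were tested and 0 passed the threshold of edgeR's test with all libraries, against 2 with an unadjusted p under 0.05 (11.8% of all genes). These were the checkpoint kinase genes *Chek1* (log2 fold change 1.03, SE 0.35, adjusted p = 0.327) and *Chek2* (0.74, SE 0.24, adjusted p = 0.303). *Chek1* had 117, 138 and 112 normalized counts in knockout and 40.1, 84.6 and 54.5 in wildtype replicates 1 to 3, with no overlap. The median log2 fold change of the regulators was 0.06, and DESeq2 and the fit without wildtype replicate 2 called 0 of them. *Rchy1*, a ubiquitin ligase for p53, had a log2 fold change of 0.15 (SE 0.10, adjusted p = 0.6505).

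The partners and substrates of the inhibitors showed the following. The list of G1 cyclins and CDKs held 11 genes, all tested, among them the phosphatase gene *Cdc25a* (named after its values were seen). Of these 11, 0 had an adjusted p under 0.05 with edgeR and 3 had an unadjusted p under 0.05 (11.8% of all genes). DESeq2 called 2 (4.65% of all genes), *Ccne2* and *Cdk4*. *Ccne2*, which encodes cyclin E2, had 314, 314 and 164 normalized counts in knockout and 93.8, 81.5 and 89.8 in wildtype replicates 1 to 3 (log2 fold change 1.58, SE 0.31, edgeR adjusted p = 0.114). *Cdk4*, the kinase bound by INK4 proteins, had 6600.0, 6899 and 6237 in knockout and 5340.1, 4440.5 and 4813 in wildtype cultures (log2 fold change 0.44, SE 0.13, edgeR adjusted p = 0.254). *Ccne1* (log2 fold change 0.92, adjusted p = 0.367), *Cdk2* (0.36, adjusted p = 0.502) and *Cdc25a* (0.22, adjusted p = 0.623) also had higher counts in each knockout culture than in each wildtype culture. *Ccne1* alone was called without wildtype replicate 2, where 2.88% of all genes were.

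Of 20 genes of Rb, E2F and the DREAM repressor complex, 0 passed with edgeR, 7 had an unadjusted p under 0.05, against 11.8% of all genes, and DESeq2 called 4, against 4.65% of all genes, namely *Foxm1*, *E2f7*, *E2f8* and *Rbl2*. *Foxm1*, an activator of G2 and mitotic genes, had 599, 575 and 429.6 normalized counts in knockout and 204, 239 and 191 in wildtype cultures (log2 fold change 1.34, SE 0.20, edgeR adjusted p = 0.0869). For the repressors *E2f7* and *E2f8* the log2 fold changes were 2.74 (SE 0.50, adjusted p = 0.108) and 2.57 (SE 0.64, adjusted p = 0.189). *Rbl2*, which encodes the pocket protein p130 of resting cells, had 2813, 2915 and 3005 in knockout and 3651, 3669 and 3786 in wildtype cultures (log2 fold change -0.35, SE 0.10, adjusted p = 0.254). Without wildtype replicate 2, edgeR called *Foxm1*, *E2f7* and *E2f8*, all higher in knockout cells, against 2.88% of all genes.

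Among 23 listed regulators of CDK inhibitor genes or proteins, 0 passed with edgeR, 4 had an unadjusted p under 0.05, against 11.8% of all genes, and DESeq2 called 2, *Cks1b* and *Ezh2*, against 4.65%. *Ezh2*, the methyltransferase that represses *Cdkn2a*, had 863, 898 and 673 normalized counts in knockout and 325, 255 and 402 in wildtype cultures (log2 fold change 1.31, SE 0.22, edgeR adjusted p = 0.0971). *Skp2* and *Cks1b*, which target p27 for degradation, had log2 fold changes of 1.12 (SE 0.34, adjusted p = 0.2696) and 1.00 (SE 0.16, adjusted p = 0.0952). The counts of *Cks1b* were 683, 655 and 658 in knockout and 369, 346 and 280.2 in wildtype cultures. *Cbx7*, a Polycomb gene that acts on the *Cdkn2a* locus, had a log2 fold change of -0.99 (SE 0.38, adjusted p = 0.376). In the fit without wildtype replicate 2, edgeR called *Ezh2* and *Cks1b* higher and *Cbx7* lower in knockout cells, against 2.88% of all genes.

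**Figure D5:**
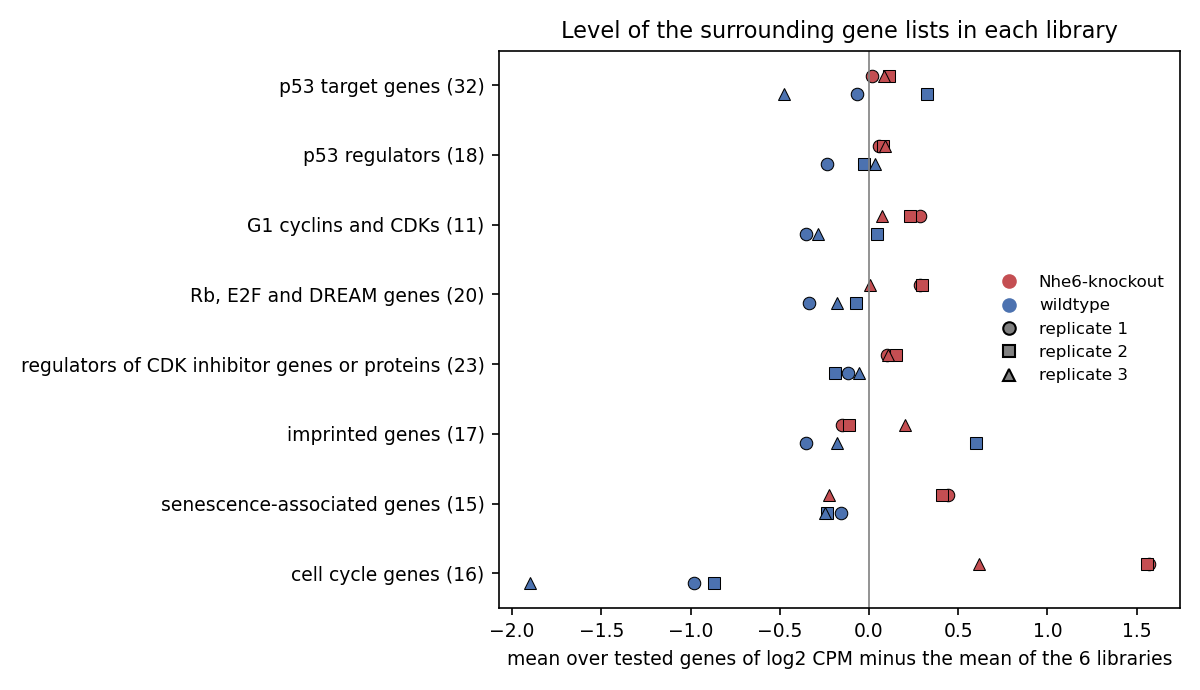
Mean over the tested genes of each list (number in brackets) of log2 CPM minus the mean of the 6 libraries, with a point for each library. Of the 8 lists plotted, the cell cycle list separates the genotypes most, from 0.62 to 1.57 in knockout and from -1.90 to -0.87 in wildtype libraries, while p53 targets range from -0.47 to 0.32 within the wildtype libraries.

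The list of 16 cell cycle genes, given as the growth state beside which the inhibitors were measured, had a median log2 fold change of 2.62, with all 16 above 0. In edgeR's test 0 had an adjusted p under 0.05 and 15 an unadjusted p under 0.05, against 11.8% of all genes. DESeq2 called 14, against 4.65% of all genes, and edgeR without wildtype replicate 2 called 9, against 2.88%. *Top2a*, which encodes topoisomerase II alpha, had 3289, 3356 and 1799.7 normalized counts in knockout and 325, 352 and 157 in wildtype cultures (log2 fold change 3.34, edgeR adjusted p = 0.0652). *Aurkb* (log2 fold change 2.90), *Cdk1* (1.71) and *Ccna2* (2.57) had adjusted p of 0.0800, 0.0800 and 0.0841. Wildtype replicate 2, with the highest *Cdkn1a* and the lowest *Cdkn2c*, had a mean relative level of this list of -0.87, near that of wildtype replicate 1 at -0.98 and above that of wildtype replicate 3 at -1.90. The part of the growth state in the values of the 9 genes was not tested.

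Of 20 listed imprinted genes, 17 were tested, 0 passed with edgeR or DESeq2 and 2 had an unadjusted p under 0.05 with edgeR, against 11.8% of all genes. The median log2 fold change was -0.13. *H19*, an imprinted non-coding RNA from the same chromosome as *Cdkn1c*, had 8871, 8939 and 7264 normalized counts in knockout and 3149.5, 7306 and 4377 in wildtype cultures (log2 fold change 0.76, SE 0.31, adjusted p = 0.4201). *Slc22a18*, a transporter gene beside *Cdkn1c*, had a log2 fold change of -1.40 (SE 0.53, adjusted p = 0.375), with 478 counts in wildtype replicate 2 against 88.1 to 214 elsewhere. *Ndn*, a growth suppressor, and *Mest* had log2 fold changes of -0.36 and 0.71 (adjusted p = 0.427 and 0.447). Without wildtype replicate 2, *H19* (log2 fold change 1.15, adjusted p = 0.0435) and *Peg10* (1.58, adjusted p = 0.0441, named after its values were seen) passed the threshold of edgeR's test, both higher in knockout cells, against 1.62% of all genes called higher. *Peg10*, a retrotransposon-derived gene, had 2579, 2430.2 and 2808 normalized counts in knockout and 613, 19489 and 1127 in wildtype replicates 1 to 3, so the culture left out had the most.

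Of 16 listed senescence-associated genes, 15 were tested, 0 passed with edgeR and 2 had an unadjusted p under 0.05, against 11.8% of all genes. These were *Hmgb2* and *Lmnb1*, which DESeq2 also called, against 4.65% of all genes. *Lmnb1*, the lamin B1 gene that is lost in senescent cells, had 909, 938 and 776 normalized counts in knockout and 407, 230.0 and 559 in wildtype cultures (log2 fold change 1.13, SE 0.32, edgeR adjusted p = 0.246). *Hmgb2*, a chromatin protein gene also lost in senescence, had a log2 fold change of 1.06 (SE 0.27, adjusted p = 0.198). *Tnfrsf1b* and *Igfbp7* had log2 fold changes of 0.87 and 0.80 (adjusted p = 0.466 and 0.569). With wildtype replicate 2 left out, edgeR called 0 of the 15, with 6 at an unadjusted p under 0.05, against 19.5% of all genes in that fit.

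Genes with the most similar pattern to each of the 9 were sought among 11126 other tested genes whose mean normalized count was at least 100, by Pearson's r of log2 CPM over the 6 libraries, as a description. *Col4a5* followed *Cdkn1c* most closely (r = 0.999, and 0.999 over the 5 libraries without wildtype replicate 2), then *Dbp* (0.994) and *Hacd1* (0.991). For *Cdkn1a* these were *AI414108*, *Pfdn2* and *Fbxo25* (r from 0.994 to 0.998), for *Cdkn1b* *Hdac3*, *Nrn1* and *Gm2115* (0.998 to 0.999), and for *Cdkn2c* *Ccbe1*, *Emx2* and *Chst8* (0.998 to 0.999). *Cdkn2a* was followed by *Fam160b2*, *Cep170b* and *Nelfe* (0.993 to 0.998), *Cdkn2b* by *Picalm*, *Gabpb1* and *Tmem2* (0.980 to 0.998) and *Cdkn2d* by *Capns1*, *Bud31* and *Phf5a* (0.976 to 0.985). The nearest genes were *Cad*, *Lingo1* and *Ddi2* for *Trp53* (0.988 to 0.995) and *Crip2*, *Rps4l* and *Wdr8* for *Mdm2* (0.992 to 0.996). With 6 libraries, between 16 (*Cdkn2d*) and 264 (*Cdkn1b*) genes had an r over 0.95. Over the 5 libraries without wildtype replicate 2, the r of these named genes lay between 0.951 and 0.999. They were picked over 6 libraries that include these 5, so this r is no separate check.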

How the data were processed

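Poly(A)-enriched stranded libraries of 6 cultures were sequenced for 75 cycles, 1 library per culture. The authors deposited raw counts of reads per gene symbol on mm10, and the submitters' processing notes name bcl2fastq 2.20.0.422, STAR 2.7.7a, HTSeq 0.13.5 and DESeq2 1.26.0. The strand setting and annotation of the counting are not given in the sources used here. Summary lines, with 22.2% of the reads in the table, were left out. Columns were matched to cultures by genotype and replicate number. Counts were filtered with filterByExpr (minimum count 10), normalized by TMM (factors 0.976 to 1.03) and tested with edgeR 4.0.16 in R 4.3.3 (quasi-likelihood test on the genotype, Benjamini-Hochberg over all genes, threshold 0.05). The standard error (SE) is the size of the log2 fold change divided by the square root of F. Normalized counts are scaled to the mean library size. Intervals and p-values cover the spread between these 6 cultures, part of which may be technical. DESeq2 1.42.0 and limma-voom (limma 3.58.1) were alternatives, and the test was tried on simulated counts. Positions and exon lengths came from GENCODE M21 (GRCm38). In 8 pathway lists and 5 marker lists, 1 symbol was matched through an older name. The 9 genes and the lists were chosen with earlier results of these data known. The text names all 9 genes, *Wrap53*, and from each list any gene past the threshold and up to 4 genes with the smallest p among those whose mean normalized count reached 50 in at least 1 genotype. It also names the 3 genes with the most similar pattern to each of the 9. Genes of the pathway lists outside this rule are said to be named after their values were seen. Marker genes outside it were also named with their values known, without a remark at each. The authors' heatmaps and their PCR and permeability data were not used here, and the level of the disrupted gene is not reported here.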

Additional observations from a re-analysis of the deposited data

How the results depend on the processing

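Under all 14 alternatives 0 of the 9 genes had an adjusted p under 0.05, while an unadjusted p under 0.05 was found for 1 gene with upper-quartile normalization and for 3 without wildtype replicate 2. The log2 fold changes of *Cdkn1c* (-1.10 to -0.06), *Cdkn2c* (0.31 to 1.01), *Trp53* (0.19 to 0.31) and *Mdm2* (0.08 to 0.65) kept their sign in all 14. That of *Cdkn1a* ran from -0.67 to 0.50, of *Cdkn1b* from -0.19 to 0.37, of *Cdkn2a* from -0.14 to 0.54, of *Cdkn2b* from -0.36 to 0.19 and of *Cdkn2d* from -0.25 to 0.18 with 1 culture left out, and each turned its sign in at least 1 such fit. *Cdkn2b* also turned without a filter beyond 1 count (-0.0026) and with limma-voom (-0.040). No pairing of the cultures beyond the replicate number is given in the sources used here. The deviations of same-numbered cultures correlated at 0.207, -0.189 and 0.111, and those of different-numbered cultures at -0.389 to 0.376. These values cannot show whether cultures were paired, because deviations of 3 cultures from their own mean depend on each other. With the replicate block the log2 fold change of *Cdkn2b* was -0.043, 2 genes of the whole table were past the threshold in place of 9, and 1 cell cycle gene, *Top2a*, was called.

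The whole table gave 21 genes without a filter beyond 1 count or with at least 10 counts in every library, 627 with DESeq2, 1 with *Nhe6*-knockout replicates 1 and 2 summed (an alternative chosen after seeing the data) and 0 to 395 with 1 culture left out, the highest without wildtype replicate 2. Without a filter beyond 1 count, 1 cell cycle gene was called. DESeq2 called 2 G1 cyclin and CDK genes, 4 Rb, E2F and DREAM genes, 2 regulators of CDK inhibitors, 2 senescence-associated genes and 14 cell cycle genes. With 1 culture left out, the counts of called genes ran from 0 to 4 for p53 targets, 0 to 1 for G1 cyclins and CDKs, 0 to 3 for Rb, E2F and DREAM genes, 0 to 3 for regulators of CDK inhibitors, 0 to 2 for imprinted genes and 0 to 9 for cell cycle genes, each highest without wildtype replicate 2. The cause of these changes was not tested. Each of the 9 genes had at least 280 reads in every library, and the effect of depth on the calls was not tested. The number of cultures limits the precision, and the smallest two-sided exact permutation p for 3 against 3 is 0.1.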
